A study of Mus musculus with 16 samples.

Results

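Whole pancreata of mouse embryos at embryonic day 16.5 (E16.5) were compared between Tff2 knockouts and controls, as 6 of the 16 libraries of the series. Tff2 encodes trefoil factor 2, a small secreted peptide of mucous epithelia. Controls (2, 8 and 13) had the genotype Tff2fl/fl, with both alleles floxed and no Cre, and knockouts (1, 18 and 19) had the genotype Pdx1:Cre;Tff2fl/fl. The Pdx1 promoter drives Cre in the early pancreatic epithelium and in nearby foregut epithelium, and which cells had lost the gene was not measured here. Embryos came from Pdx1:Cre;Tff2fl/+ males mated to Tff2fl/fl females, and no group carried Pdx1:Cre without the floxed alleles. The labels name neither litters nor the deleted exons. All genes of the count table were examined, 24091 in all, and 14914 passed the filter on low counts and were tested. Of these, 560 rose in knockouts (3.75% of genes tested) and 399 fell (2.68%) at an adjusted p under 0.05 in the quasi-likelihood test of edgeR.

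At this stage the pancreatic epithelium is branching, its tips fill with digestive enzymes as acinar cells, and its trunk gives rise to ducts and to hormone-producing endocrine cells. Around it lie mesenchyme, smooth muscle, vessels, blood cells and nerve fibres. Sympathetic neurons and the related chromaffin cells of the adrenal medulla and paraganglia come from the neural crest and make noradrenaline from tyrosine through tyrosine hydroxylase (Th) and dopamine beta-hydroxylase (Dbh). In RNA from a whole organ, fewer cells of a type and less RNA per cell cannot be told apart.

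The libraries held 14866194 to 22699934 counted reads. Levels are given in CPM, counts scaled by library size and composition, in the order of controls 2, 8 and 13 and then knockouts 1, 18 and 19. Tff2 stood at 38.7, 22.7 and 35.1 CPM in controls and 2.70, 9.96 and 1.60 CPM in knockouts, a change of -2.80 on the log2 scale (SE 0.535, edgeR adjusted p = 0.0297), on chromosome 17 (31141062 to 31144282 in mm10). Knockout 18 kept the most Tff2 and was the only male by Xist and Ddx3y, 5 libraries being female. Knockout 1 had the highest summed level of 7 liver genes, 1549 CPM against 305 to 519 CPM elsewhere, and the 10 most abundant genes took 8.20% of its counts against 11.4% to 14.6% elsewhere. Nearly all edgeR calls needed all 3 controls: edgeR called 0 genes in either direction without control 2 or without control 13, and 3 risen and 1 fallen without control 8, while 2606, 3420 and 2923 genes had an unadjusted p under 0.05. DESeq2, on the same reduced sets, called 427 risen and 182 fallen genes without control 2, 684 and 518 without control 13, and 506 and 284 without control 8. The replicates are embryos with numbers of their own, and p-values set group differences against the spread among them. Litters are not named, so whether the embryos are independent was not tested.

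The risen genes lay much further from the controls than the fallen genes did. Among the 560 that rose, 134 were at least 4-fold higher and 300 at least 2-fold higher (2.01% of genes tested), with a median log2 fold change of 1.08. Among the 399 that fell, 17 were at least 2-fold lower (0.114% of genes tested), and the median size was 0.42 on the log2 scale. The control mean was under 1 CPM in 83 of the risen genes and in 0 of the fallen. Fold changes of those 83 rest on few control reads. In every gene given by name as risen or fallen, the 3 knockout values lay all above or all below the 3 control values. That separation also held, with knockouts higher, in 15% of all genes tested and, with knockouts lower, in 16.1%. The split of calls depended on the scaling: library totals gave 779 risen and 179 fallen genes, and scaling to 15 epithelial genes gave 9911 and 51 and shifted the median of all genes by 0.39 on the log2 scale.

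**Figure D1:**
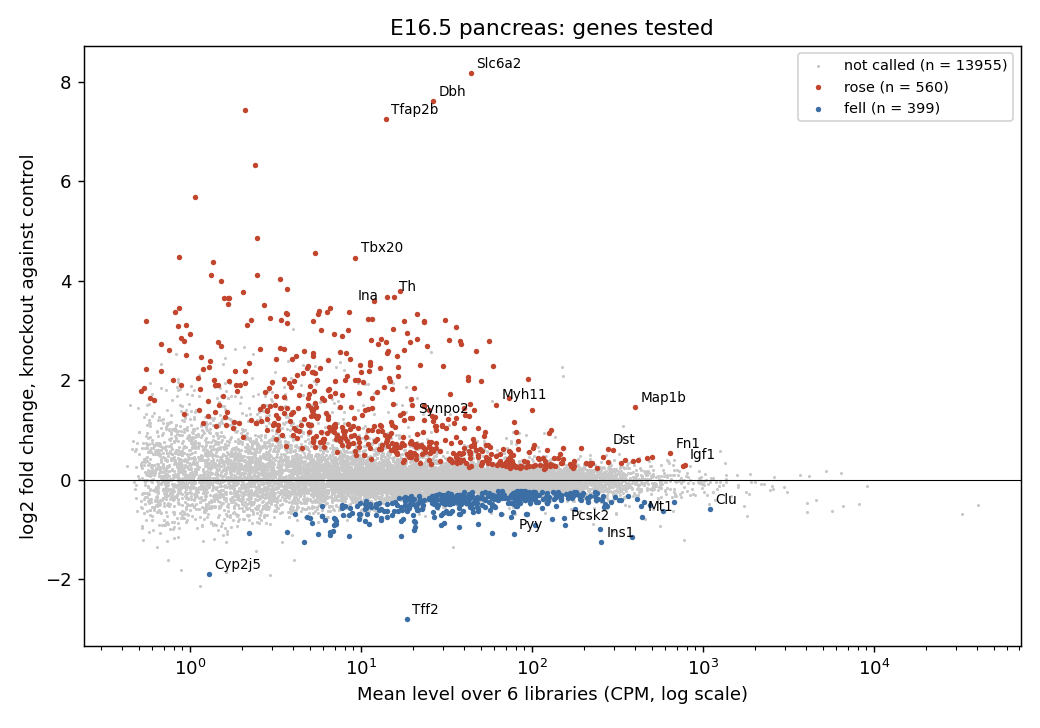
Each point is 1 of the 14914 genes tested, with its mean level over the 6 libraries in CPM (log scale) across and its log2 fold change, knockout against control, upward. Red points rose (560) and blue points fell (399) at an adjusted p under 0.05, and risen points reach a log2 fold change of 8.17 at Slc6a2 while the lowest fallen points are Tff2 at -2.80 and Cyp2j5 at -1.90.

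The largest fold changes among called genes of at least 1 CPM were those of Slc6a2 and Dbh, which serve noradrenaline. Slc6a2, the transporter that takes noradrenaline back into the cell, stood at 0.137, 0.560 and 0.230 CPM in controls and 166, 70.2 and 26.4 CPM in knockouts. Its level was near 0 in the 3 controls and differed several-fold among the knockouts, with a change of 8.17 on the log2 scale (SE 0.975, edgeR adjusted p = 0.0176). Dbh, the enzyme that turns dopamine into noradrenaline, stood at 0.137, 0.336 and 0.345 CPM in controls and 96.0, 41.7 and 19.6 CPM in knockouts, again with knockout 1 highest and knockout 19 lowest. The change in Dbh was a change of 7.61 on the log2 scale (SE 0.838, edgeR adjusted p = 0.0166). Th, the first enzyme of the pathway, was measurable in controls, at 2.74, 1.74 and 2.24 CPM, and stood at 55.2, 21.0 and 10.5 CPM in knockouts, a change of 3.68 on the log2 scale (SE 0.612, edgeR adjusted p = 0.0236). Slc18a2, which loads monoamines into vesicles, stood at 6.11, 7.84 and 8.63 CPM in controls and 61.1, 31.2 and 18.0 CPM in knockouts, with a change of 2.30 on the log2 scale (SE 0.413, edgeR adjusted p = 0.0270).

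The promoters of Th and Slc18a2 are shown because both genes rose and both hold the 8-base cyclic AMP response element TGACGTCA, in capitals. They are the RefSeq windows of build GRCm38.p6 from 250 bases before to 50 after the start site, 5′ to 3′ along the gene, at chr7:142899946-142900245 (minus strand) and chr19:59260628-59260927 (plus strand).
Th: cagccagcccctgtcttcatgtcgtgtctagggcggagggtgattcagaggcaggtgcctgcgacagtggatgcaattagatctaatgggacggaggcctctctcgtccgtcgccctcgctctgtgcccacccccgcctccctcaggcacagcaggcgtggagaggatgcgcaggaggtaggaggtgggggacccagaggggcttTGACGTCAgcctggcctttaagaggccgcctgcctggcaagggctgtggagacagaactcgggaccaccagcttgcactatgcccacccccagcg
Slc18a2: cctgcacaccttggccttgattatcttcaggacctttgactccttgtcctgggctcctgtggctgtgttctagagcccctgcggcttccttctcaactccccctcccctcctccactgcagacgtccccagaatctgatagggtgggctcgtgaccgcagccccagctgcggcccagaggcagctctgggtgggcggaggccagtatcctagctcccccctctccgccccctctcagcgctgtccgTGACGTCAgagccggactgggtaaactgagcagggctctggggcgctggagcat
The match begins 45 bases before the start site of Th and 4 bases before that of Slc18a2. The motif and these genes were chosen after several motifs had been searched in the promoters of named genes. Both strands read alike, since the motif is its own reverse complement, and it occurs in 1.79% of 32851 promoter windows. Among genes with a window it was found in 3.48% of the 11494 tested, 3.67% of the 409 that rose and 3.86% of the 311 that fell, so its share among risen genes was near that of all genes tested.

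Most tested transcription factors of autonomic neurons also rose. Of 14 tested members of that list, 10 rose, 1 fell (Insm1, a factor also of endocrine cells) and 3 did not pass. The median log2 fold change was 2.36 against 0.00 over all genes tested, of which 3.75% rose and 2.68% fell. Tfap2b, a neural crest factor, stood at 0.0913, 0.168 and 0.288 CPM in controls and 52.5, 22.6 and 7.67 CPM in knockouts, a change of 7.25 on the log2 scale (SE 0.958, edgeR adjusted p = 0.0176). Gata3, which maintains sympathetic neurons and chromaffin cells, stood at 2.24, 2.02 and 2.42 CPM in controls and 36.6, 17.3 and 8.68 CPM in knockouts. In both, controls were low and knockouts spread in the order 1, 18, 19. The log2 fold changes were 3.23 for Gata3, 2.93 for Phox2a, which specifies autonomic neurons, 3.00 for Hand1 and 1.84 for Gata2. Tbx20, a T-box factor of the heart and of cranial motor neurons, was the 1 riser among 22 tested factors of heart and splanchnic mesoderm, and stood at 1.05, 0.280 and 1.04 CPM in controls and 30.0, 17.1 and 5.88 CPM in knockouts.

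Among the Hox genes, which mark position along the body axis, 3 of 21 tested rose and none fell. The list's median was 0.26, and 3.75% of all genes tested rose. All 3 lie in the HoxC cluster. Hoxc8 stood at 0.137, 0.336 and 0.863 CPM in controls and 7.73, 4.27 and 2.79 CPM in knockouts and Hoxc6 at 0.639, 0.672 and 1.04 CPM in controls and 3.87, 2.30 and 2.56 CPM in knockouts, both low in absolute terms. Hoxc5 had a change of 0.85 on the log2 scale (SE 0.190, edgeR adjusted p = 0.0420), and its knockout values of 5.61, 5.62 and 4.93 CPM lay close together, unlike those of Hoxc8.

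Most tested genes of the neuronal cytoskeleton and of axon growth rose. Of 22 tested members, 18 rose and none fell, where 3.75% of all genes tested rose. All 22 had a log2 fold change above 0, with a median of 2.04. Ina, the neurofilament protein alpha-internexin, stood at 2.14, 1.90 and 2.07 CPM in controls and 49.4, 20.2 and 8.80 CPM in knockouts, a change of 3.68 on the log2 scale (SE 0.613, edgeR adjusted p = 0.0237). Prph, the peripherin filament of peripheral neurons, stood at 8.85, 7.22 and 6.67 CPM in controls and 114, 51.4 and 27.4 CPM in knockouts, a change of 3.08 on the log2 scale (SE 0.490, edgeR adjusted p = 0.0215). Controls differed little in both genes, and knockout 1 was several times higher than knockout 19. Nefl, the light neurofilament chain, had a log2 fold change of 3.18, and Stmn2, a tubulin-binding protein of growth cones, one of 2.03. Map1b, a microtubule-associated protein that controls also expressed well, rose from 214 ± 8.84 CPM in controls to 588 ± 261 CPM in knockouts (mean ± SD, n = 3), and Dpysl5, of the collapsin response mediators, rose by 1.72 on the log2 scale.

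Surface molecules for axon guidance changed in part. Of 44 tested semaphorins, slits, netrins and their receptors, 10 rose, 2 fell and 32 did not pass, and the median was 0.08. Over all genes tested, 3.75% rose and 2.68% fell. Plxna4, a semaphorin receptor, stood at 44.3, 53.8 and 66.1 CPM in controls and 172, 137 and 127 CPM in knockouts, a change of 1.41 on the log2 scale (SE 0.160, edgeR adjusted p = 0.0176). Dcc, a netrin receptor, stood at 2.97, 2.97 and 2.30 CPM in controls and 9.06, 6.23 and 7.13 CPM in knockouts, and Nrp2, a co-receptor for semaphorins, at 118, 109 and 114 CPM in controls and 158, 139 and 166 CPM in knockouts. These risers were less spread among the knockouts than the noradrenergic genes. The fallers were Slit1, a repellent ligand, at 6.98, 7.06 and 6.79 CPM in controls and 5.03, 4.61 and 4.81 CPM in knockouts, and Robo4, an endothelial receptor. Slit1 passed the threshold in 2 of 17 alternatives.

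Among ephrins and Eph receptors 2 of 19 tested rose and none fell, with a median of 0.09, where 3.75% of all genes tested rose. The ligand gene Efna5 was among the most evenly changed genes of all, at 37.2, 34.6 and 39.3 CPM in controls and 71.1, 66.3 and 66.9 CPM in knockouts, a change of 0.88 on the log2 scale (SE 0.0681, edgeR adjusted p = 0.0116). Its receptor gene Epha5 stood at 2.51, 2.97 and 3.11 CPM in controls and 16.8, 10.8 and 5.94 CPM in knockouts. Chl1, a neural adhesion molecule, rose by 1.50 on the log2 scale, and St8sia1, which makes the ganglioside GD3, by 1.23. B3gat1, which makes the HNK-1 carbohydrate of neural crest cells, was under 1 CPM in controls and stood at 7.89, 4.20 and 1.84 CPM in knockouts. Of 15 tested neurotrophin and GDNF family genes, 2 rose, among them the neurotrophin receptor gene Ngfr, at 16.8, 15.3 and 15.6 CPM in controls and 56.0, 31.6 and 26.4 CPM in knockouts. None of the 15 fell, and the list's median was 0.27.

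Synaptic genes were split in direction. Of 30 tested genes for vesicles and release, 10 rose, 3 fell and 17 did not pass. The list's median was 0.85, where 3.75% of all genes tested rose and 2.68% fell. Syt1, the calcium sensor of fast release, stood at 4.61, 4.54 and 4.89 CPM in controls and 74.6, 33.3 and 18.1 CPM in knockouts, a change of 3.17 on the log2 scale (SE 0.493, edgeR adjusted p = 0.0207). Syt4 and the vesicle protein gene Sv2c had log2 fold changes of 3.34 and 2.72, and Rph3a, a vesicle-binding effector of Rab3 outside that list, one of 3.66. The fallers were Scg2, at 138, 123 and 145 CPM in controls and 82.2, 72.0 and 60.0 CPM in knockouts, Chga, at 177, 143 and 181 CPM in controls and 111, 98.6 and 78.0 CPM in knockouts, and Cplx2, at 101, 93.0 and 101 CPM in controls and 76.1, 71.9 and 64.1 CPM in knockouts. Scg2 and Chga encode granins, packed into the dense-core granules of endocrine cells as well as of neurons, and Cplx2 encodes a complexin that regulates granule release. The fallers differed less among the knockouts, where the risers differed several-fold.

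Some ion channel genes rose. Of 38 tested potassium channel genes, 7 rose, 1 fell and 30 did not pass, with a median of 0.29. Of 26 tested sodium and calcium channel genes, 11 rose, none fell and 15 did not pass, with a median of 0.47. Of all genes tested, 3.75% rose. Kcnq3, a subunit of the M-current channel that sets neuronal excitability, stood at 0.502, 0.168 and 0.460 CPM in controls and 10.6, 5.62 and 2.73 CPM in knockouts, a change of 4.03 on the log2 scale (SE 0.594, edgeR adjusted p = 0.0186). Scn9a, a sodium channel of peripheral neurons, stood at 3.79, 5.38 and 3.22 CPM in controls and 38.3, 22.3 and 11.8 CPM in knockouts, and its controls and knockouts were well apart. The sodium channel beta subunit gene Scn3b, the calcium channel gene Cacna1e, the gamma subunit gene Cacng5 and the potassium channel gene Kcnc4 had log2 fold changes of 2.81, 2.15, 4.55 and 3.99. The 1 faller was Kcnj11, the pore of the beta cell ATP-sensitive potassium channel, at 26.6, 24.5 and 23.99 CPM in controls and 19.8, 14.8 and 16.5 CPM in knockouts.

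Of 32 tested neurotransmitter receptor genes, 13 rose and none fell, with a median of 0.52, where 3.75% of all genes tested rose. Chrna3, the nicotinic subunit of autonomic ganglia, stood at 1.51, 2.52 and 1.50 CPM in controls and 21.7, 11.8 and 7.37 CPM in knockouts, a change of 2.89 on the log2 scale (SE 0.422, edgeR adjusted p = 0.0186). Chrna5, a further ganglionic subunit, and Htr3b, a serotonin-gated channel subunit, had log2 fold changes of 3.20 and 4.12. The AMPA glutamate receptor gene Gria1 stood at 5.34, 6.55 and 5.41 CPM in controls and 17.6, 12.4 and 15.7 CPM in knockouts, and Gria2 at 8.94, 7.73 and 8.51 CPM in controls and 21.6, 14.6 and 17.2 CPM in knockouts. In Gria1 and Gria2 the knockouts lay closer together than in Chrna3, and knockout 18 was the lowest of the 3.

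RNA-processing factors of neurons were among the risers. Of 23 tested splicing regulators, 5 rose and none fell, with a median of 0.28, where 3.75% of all genes tested rose. Srrm4, which drives inclusion of neuronal microexons, stood at 3.06, 2.86 and 2.65 CPM in controls and 15.4, 10.02 and 5.11 CPM in knockouts, a change of 1.83 on the log2 scale (SE 0.364, edgeR adjusted p = 0.0322), and Celf5, an RNA-binding regulator of splicing, rose by 1.85 on the log2 scale. Ptbp2, the neuronal polypyrimidine tract protein, stood at 32.6, 34.9 and 35.1 CPM in controls and 58.1, 44.3 and 50.5 CPM in knockouts, and Mbnl1, a broadly expressed regulator, at 145, 159 and 152 CPM in controls and 178, 186 and 190.4 CPM in knockouts. The last 2 were well expressed in controls and moved by less than 1.5-fold, with Srrm3 the other riser. Chd5, a neuronal chromatin remodeller and the 1 riser among 40 tested chromatin genes, had a log2 fold change of 2.17. Of 425 tested long noncoding RNAs, 9 rose and 3 fell, so 2.82% were called against 6.43% of all genes tested. Snhg11, a host gene of small nucleolar RNA, stood at 2.51, 1.79 and 2.53 CPM in controls and 53.1, 29.1 and 12.4 CPM in knockouts, a change of 3.79 on the log2 scale (SE 0.525, edgeR adjusted p = 0.0176).

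**Figure D2:**
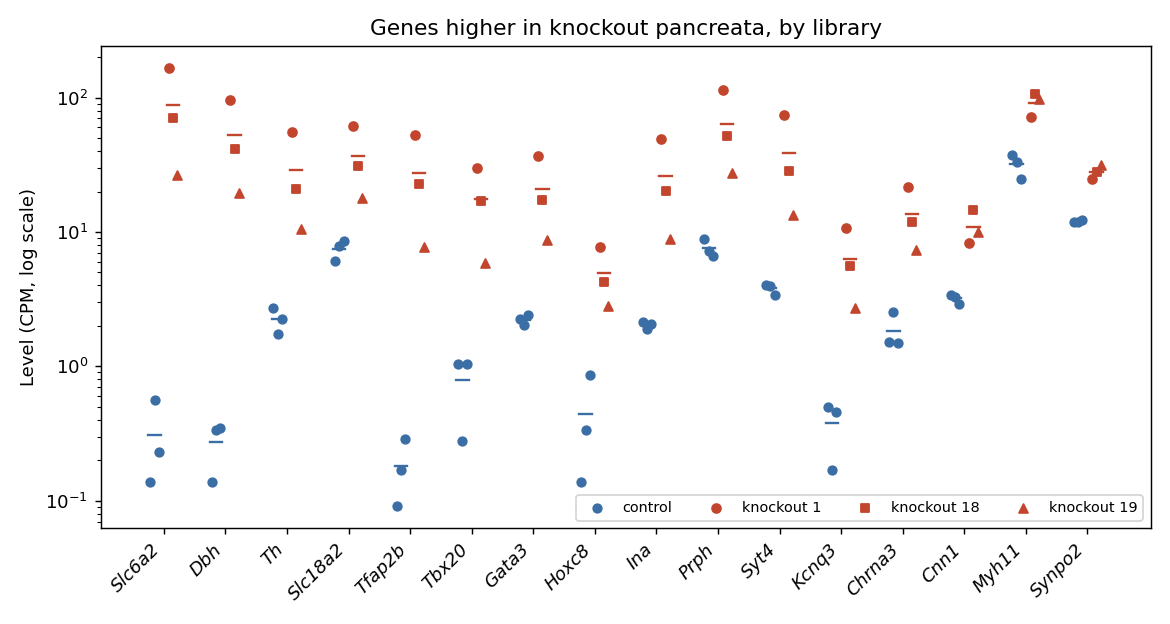
Levels of 16 risen genes in each library, in CPM on a log scale, with blue circles for the 3 controls, red symbols for knockouts 1, 18 and 19 and short bars for group means. In the neuronal genes on the left and centre the knockouts descend in the order 1, 18, 19, whereas the smooth muscle genes Cnn1, Myh11 and Synpo2 on the right do not follow it.

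The knockouts kept the same order across most of the strongly risen genes. Of the 134 genes at least 4-fold higher, 130 were highest in knockout 1, next in 18 and lowest in 19, and of the 300 at least 2-fold higher, 226 were. For the 18 risen genes of the neuronal cytoskeleton the order held in 18, and the excess over the control mean in knockout 1 was 6.99 times that in knockout 19 (median). For the 260 genes that rose by less than 2-fold the order held in 81, and the median ratio was 1.12. For the 399 fallen genes that order of levels held in 64, and the median ratio of the shortfalls was 1.04. The fold changes of the neuronal genes are thus means over unequal embryos.

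Markers of other cells were summed beside these genes. The 10 markers of sympathetic neurons and chromaffin cells summed to 75.4 to 92.2 CPM in controls and 183 to 666 CPM in knockouts. Of these 10, 8 rose, where 3.75% of all genes tested rose and 2.68% fell. The 10 markers of enteric neurons and glia summed to 157 to 208 CPM in controls and 193 to 275 CPM in knockouts. Of the 9 tested, 3 rose and 1 fell. The 7 markers of adrenal cortex summed to 4.09 to 6.50 CPM in controls and 4.47 to 7.91 CPM in knockouts. Only 2 of the 7 passed the filter and were tested, and neither was called. Cyp11b1 and Cyp21a1, steroid-making enzymes of adrenal cortex, had under 10 reads in each library. Liver genes were high in knockout 1, the library with the highest neuronal genes. Without knockout 1, 19 cytoskeleton genes and 10 autonomic factors rose, with medians of 1.39 and 1.75. With the level of 5 liver genes as a covariate, 7 members of each of those 2 lists rose, with medians of 1.49 and 1.83.

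Several smooth muscle genes rose without that order. Myh11, the smooth muscle myosin heavy chain, stood at 37.7, 33.4 and 24.8 CPM in controls and 71.2, 106 and 97.0 CPM in knockouts, a change of 1.51 on the log2 scale (SE 0.183, edgeR adjusted p = 0.0176). Synpo2, an actin-bundling protein of muscle, had almost equal controls, at 11.8, 11.8 and 12.2 CPM in controls and 24.6, 27.8 and 31.6 CPM in knockouts, a change of 1.23 on the log2 scale (SE 0.107, edgeR adjusted p = 0.0116). Knockout 1 was the lowest of the 3 knockouts in both genes. Cnn1, a smooth muscle calponin, stood at 3.42, 3.30 and 2.93 CPM in controls and 8.26, 14.5 and 9.99 CPM in knockouts, and Myocd, the coactivator that drives smooth muscle genes, at 2.74, 2.41 and 2.42 CPM in controls and 5.03, 7.52 and 9.03 CPM in knockouts. The 6 smooth muscle markers summed to 219 to 271 CPM in controls and 327 to 476 CPM in knockouts. Of these 6, 4 rose, where 3.75% of all genes tested rose.

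Of 23 tested genes of the striated muscle sarcomere, 3 rose and none fell, with a median of 0.71, where 3.75% of all genes tested rose. Ttn, the giant sarcomere spring, stood at 2.10, 1.57 and 1.21 CPM in controls and 5.14, 4.94 and 3.80 CPM in knockouts, and Myl1, a fast-muscle light chain, at 0.183, 0.168 and 0.345 CPM in controls and 1.96, 1.56 and 1.31 CPM in knockouts. Both were low in all libraries. The third was Myh8, a perinatal myosin, at 5.89, 4.26 and 7.25 CPM in controls and 10.4, 12.2 and 20.4 CPM in knockouts. Nppa, an atrial marker, had 0 reads in each library.

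A few matrix genes rose by small amounts. Of 37 tested elastic fibre, proteoglycan and matricellular genes, 3 rose and none fell, with a median of 0.15, where 3.75% of all genes tested rose. The number that rose was 8 without knockout 1, 1 without knockout 18, 1 without knockout 19, 1 with the liver covariate, 1 with the sex covariate, 6 with library totals, 27 under epithelial scaling and 0 with the length trend removed, and the median lay between 0.07 and 0.55. Fn1, fibronectin, stood at 544, 462 and 564 CPM in controls and 678, 891 and 699 CPM in knockouts, a change of 0.53 on the log2 scale (SE 0.125, edgeR adjusted p = 0.0475). Fbn2, a microfibril protein of developing tissue, stood at 402, 376 and 411 CPM in controls and 500.0, 556 and 559 CPM in knockouts, a change of 0.44 on the log2 scale (SE 0.0739, edgeR adjusted p = 0.0236), and Ltbp1 was the third. Of 34 collagen genes, 1 rose, the fibrillar Col11a1, at 46.2, 49.96 and 46.9 CPM in controls and 63.0, 57.0 and 71.8 CPM in knockouts, and the list's median was 0.06. The heparan sulfatase genes Sulf1 and Sulf2, whose enzymes trim the sugar chains that hold growth factors, had log2 fold changes of 0.60 and 0.24. Mmp16, a membrane metalloprotease, rose by 0.49 on that scale, and Itga8, an integrin subunit of smooth muscle and mesenchyme, stood at 18.4, 14.1 and 13.0 CPM in controls and 37.98, 21.9 and 49.99 CPM in knockouts, with the knockouts unevenly spread.

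Some genes of growth factor pathways were called, where 3.75% of all genes tested rose and 2.68% fell. Of 47 tested BMP and TGF-beta genes, 3 rose (Smad9, Bmpr2 and Grem1) and 2 fell (Bmp7 and Eng), with a median of 0.13. Bmpr2, a BMP receptor, stood at 189, 205 and 202 CPM in controls and 249, 254 and 249.9 CPM in knockouts, with a change of 0.33 on the log2 scale (SE 0.0575, edgeR adjusted p = 0.0248). Grem1, a secreted BMP antagonist of smooth muscle and mesenchyme, stood at 1.73, 2.13 and 2.36 CPM in controls and 3.60, 4.67 and 5.11 CPM in knockouts, and Smad9 at 3.15, 3.53 and 3.97 CPM in controls and 11.2, 8.13 and 7.37 CPM in knockouts. Bmp7, an epithelial BMP ligand, stood at 101, 112 and 102 CPM in controls and 76.6, 80.9 and 82.9 CPM in knockouts. This difference of -0.39 on the log2 scale changed sign under epithelial scaling, where the median of all genes was 0.39. Eng, a TGF-beta co-receptor of endothelial cells, had the larger fall, at -0.58. The other 42 of the 47 genes did not pass.

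Few genes of the IGF, Wnt and hedgehog lists were called, where 3.75% of all genes tested rose and 2.68% fell. Igf1, a growth factor made by mesenchyme, was the 1 call among 25 genes of the IGF and imprinted growth list. It stood at 704, 712 and 675 CPM in controls and 848, 864 and 869 CPM in knockouts, a change of 0.30 on the log2 scale (SE 0.0654, edgeR adjusted p = 0.0392), with both groups tight. Of 47 Wnt genes, Sfrp2, a secreted Wnt modulator, rose, at 79.5, 72.6 and 84.5 CPM in controls and 133, 116 and 133 CPM in knockouts, and Wnt7b, an epithelial ligand, fell, at 18.8, 16.8 and 17.0 CPM in controls and 11.7, 12.9 and 13.3 CPM in knockouts. Of 16 hedgehog genes, the transcription factor gene Gli3 and Scube1 rose, Gli3 by 0.34 on the log2 scale. Lrp1, a large endocytic receptor, rose by 0.39 on the same scale.

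Among the abundant risers were genes for very large cytoskeletal proteins. Dst, a linker of filament systems, stood at 219, 227 and 209 CPM in controls and 366, 327 and 311 CPM in knockouts, a change of 0.62 on the log2 scale (SE 0.0766, edgeR adjusted p = 0.0176). Macf1, its relative that links actin to microtubules, stood at 360.3, 369 and 352 CPM in controls and 466, 454 and 497 CPM in knockouts, and Dync1h1, the heavy chain of the dynein motor, at 449.7, 406 and 408 CPM in controls and 593, 536 and 602 CPM in knockouts. All 6 libraries expressed these genes well, and the groups stood apart by more than the spread within either. The log2 fold changes were 0.45 for Syne2 (a nuclear envelope anchor), 0.36 for Birc6 (a ubiquitin ligase that blocks apoptosis), 0.34 for Myh10 (non-muscle myosin) and 0.28 for Sptbn1 (spectrin). These genes are long, from 9.82 kb for Myh10 to 33.0 kb for Dst, and long genes rose more often, as given below. Over the alternatives run, the lowest log2 fold changes were 0.25 for Dst, 0.077 for Macf1 and 0.26 for Dync1h1. They were 0.13 for Syne2, 0.086 for Birc6, 0.22 for Myh10 and 0.14 for Sptbn1.

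Called genes differed in length, a property the test did not use. The length given in the deposited table had a median of 5.68 kb for risen genes, 2.30 kb for fallen genes and 3.37 kb for all tested. Over 5 equal bins of length, 1.27% rose and 5.09% fell in the bin of shortest genes (0.06 to 1.81 kb), and 9.09% rose and 1.04% fell in that of longest genes (from 5.79 kb). The pattern held in genes of at least 10 CPM, where 7.71% of the shortest bin fell and 8.34% of the longest bin rose. Each knockout showed it: relative to the control mean, the median of the shortest bin lay at -0.13, -0.10 and -0.16 and that of the longest at 0.10, 0.04 and 0.10 on the log2 scale, while controls stayed between -0.03 and 0.02. The control mean holds each control, which draws the controls towards 0, and all knockouts share that reference. With the trend removed library by library, an alternative chosen after seeing the data, 333 genes rose and 196 fell. Of the 22 cytoskeleton genes 13 then rose, and their median was 2.12 against 2.04 before. Of the 52 respiratory chain genes none then fell, and their median was -0.09 against -0.25 before.

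**Figure D3:**
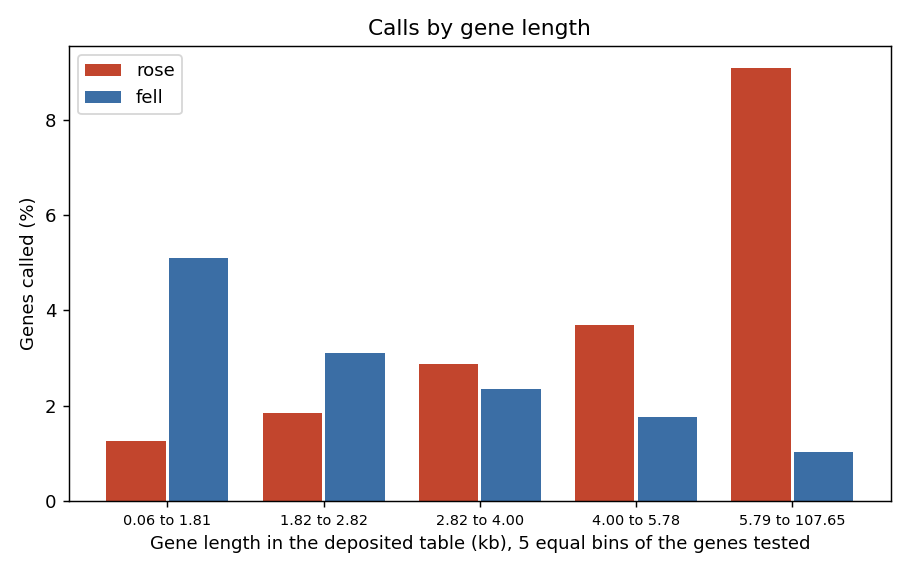
Bars give the percent of genes that rose (red) and fell (blue) in 5 equal bins of the 14914 genes tested by the gene length of the deposited table in kb. The share that rose climbs from 1.27% to 9.09% and the share that fell drops from 5.09% to 1.04%.

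A few genes of blood and immune cells rose, chosen for naming after their values were seen. Lyz2, the lysozyme of macrophages, stood at 58.1, 46.4 and 59.5 CPM in controls and 68.5, 129 and 119.7 CPM in knockouts, a change of 0.95 on the log2 scale (SE 0.221, edgeR adjusted p = 0.0461). Ccr2, a chemokine receptor of monocytes, stood at 13.96, 11.8 and 21.4 CPM in controls and 23.7, 32.3 and 35.7 CPM in knockouts. Ikzf1 and Coro1a, a lymphoid factor and an actin regulator of leukocytes, had log2 fold changes of 0.89 and 0.69. The 5 macrophage markers summed to 273 to 332 CPM in controls and 249 to 477 CPM in knockouts, so the groups overlapped. Of these 5, 1 rose, where 3.75% of all genes tested rose. Of 29 tested complement and coagulation genes edgeR called 0, with 5 at an unadjusted p under 0.05, DESeq2 calling 2 and limma-voom 0.

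Among the fallen genes were regulators of endocrine cells. Irx2, an alpha cell factor, stood at 8.76, 9.41 and 9.43 CPM in controls and 6.09, 4.20 and 3.15 CPM in knockouts, a change of -1.03 on the log2 scale (SE 0.222, edgeR adjusted p = 0.0393). Mnx1, needed for beta cells, stood at 2.97, 2.80 and 3.34 CPM in controls and 1.91, 1.08 and 1.25 CPM in knockouts, and all 3 knockouts were under all 3 controls at these low levels. Rfx6 and Glis3, factors of endocrine differentiation, had log2 fold changes of -0.63 and -0.49, the latter with little spread in either group.

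Several genes for the work of endocrine cells fell, some by about 2-fold. G6pc2, the islet glucose-6-phosphatase, stood at 24.9, 21.95 and 23.8 CPM in controls and 11.9, 10.1 and 10.4 CPM in knockouts, a change of -1.12 on the log2 scale (SE 0.101, edgeR adjusted p = 0.0116). Pyy, the peptide YY gene, stood at 114, 89.2 and 116 CPM in controls and 49.7, 48.0 and 51.5 CPM in knockouts, a change of -1.09 on the log2 scale (SE 0.102, edgeR adjusted p = 0.0120). In both, the knockouts were nearly equal and far under the controls. Pcsk2, a prohormone convertase, stood at 197, 192 and 225 CPM in controls and 126, 103 and 94.6 CPM in knockouts, Slc30a8, which loads zinc into insulin granules, at 25.2, 27.3 and 28.9 CPM in controls and 14.5, 15.04 and 10.7 CPM in knockouts, and Iapp, the amylin gene, at 338, 295 and 367 CPM in controls and 189, 178 and 131 CPM in knockouts. Ins1 fell from 357 ± 70.4 CPM in controls to 149.6 ± 23.5 CPM in knockouts (mean ± SD, n = 3). Slc2a2, a glucose transporter, had a log2 fold change of -0.87. The secretory genes Hepacam2, Syt13, Rph3al and Cpe fell less, with log2 fold changes of -0.84, -0.70, -0.55 and -0.46.

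Among the 20 largest falls of called genes of at least 1 CPM were 3 receptor genes for nutrients or hormones. Ffar4, a long-chain fatty acid receptor, stood at 4.88, 5.26 and 4.89 CPM in controls and 2.86, 1.96 and 2.32 CPM in knockouts, and Ffar2, a short-chain fatty acid receptor, at 49.5, 59.8 and 38.5 CPM in controls and 33.5, 19.0 and 23.2 CPM in knockouts. Sstr3, a somatostatin receptor, stood at 6.52, 7.39 and 8.92 CPM in controls and 4.56, 2.91 and 3.21 CPM in knockouts, a change of -1.08 on the log2 scale (SE 0.210, edgeR adjusted p = 0.0300). Mlph, a linker of granules to myosin, was lowest in knockout 1, at 8.71, 9.47 and 8.86 CPM in controls and 2.38, 5.55 and 4.58 CPM in knockouts. The 8 endocrine markers summed to 2017 to 2710 CPM in controls and 743 to 1274 CPM in knockouts, and 7 of 8 fell. The acinar markers summed to 53482 to 64274 CPM in controls and 25490 to 49314 CPM in knockouts. Of 8 acinar markers, 1 was called, Ptf1a, where 2.68% of all genes tested fell.

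A few epithelial transcription factors that fell are given here, chosen after their values were seen and from no list. Foxa2, a pioneer factor of the endoderm, stood at 44.7, 42.6 and 41.4 CPM in controls and 34.9, 28.5 and 30.0 CPM in knockouts, a change of -0.46 on the log2 scale (SE 0.0868, edgeR adjusted p = 0.0289), and the epithelial ETS factors Ehf, Elf3 and Spdef had log2 fold changes of -0.46, -0.51 and -0.42. Of 29 tested FGF genes, 2 rose (Fgf13 and Fgf14, intracellular partners of sodium channels) and 2 fell, both receptors. Over all genes tested, 3.75% rose and 2.68% fell. Fgfr2, the epithelial receptor for mesenchymal FGF10, stood at 97.5, 97.1 and 99.2 CPM in controls and 66.3, 74.4 and 70.8 CPM in knockouts, a change of -0.48 on the log2 scale (SE 0.0590, edgeR adjusted p = 0.0176). Fgfr3 stood at 47.5, 39.8 and 50.8 CPM in controls and 24.3, 28.0 and 33.0 CPM in knockouts. The FGF median was -0.18 and turned to 0.21 under epithelial scaling, where the median of all genes was 0.39.

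Several genes of the epithelial surface also fell. Of 15 epithelial identity genes, 9 fell and none rose, with a median of -0.46, where 2.68% of all genes tested fell. Cldn3, a tight junction claudin, stood at 97.5, 102 and 84.8 CPM in controls and 60.4, 58.9 and 62.7 CPM in knockouts, a change of -0.64 on the log2 scale (SE 0.0769, edgeR adjusted p = 0.0176), and Cldn6 and Cldn7 had log2 fold changes of -0.49 and -0.54. Spint2, a membrane inhibitor of serine proteases, stood at 593, 593 and 526 CPM in controls and 379, 419.8 and 405 CPM in knockouts, and its relative Spint1 had a log2 fold change of -0.46. Krt18, a keratin of simple epithelia, fell from 512 ± 33.0 CPM in controls to 356 ± 41.4 CPM in knockouts (mean ± SD, n = 3). Where libraries were scaled to these same 15 genes, their median was -0.07, with 1 risen and 1 fallen.

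**Figure D4:**
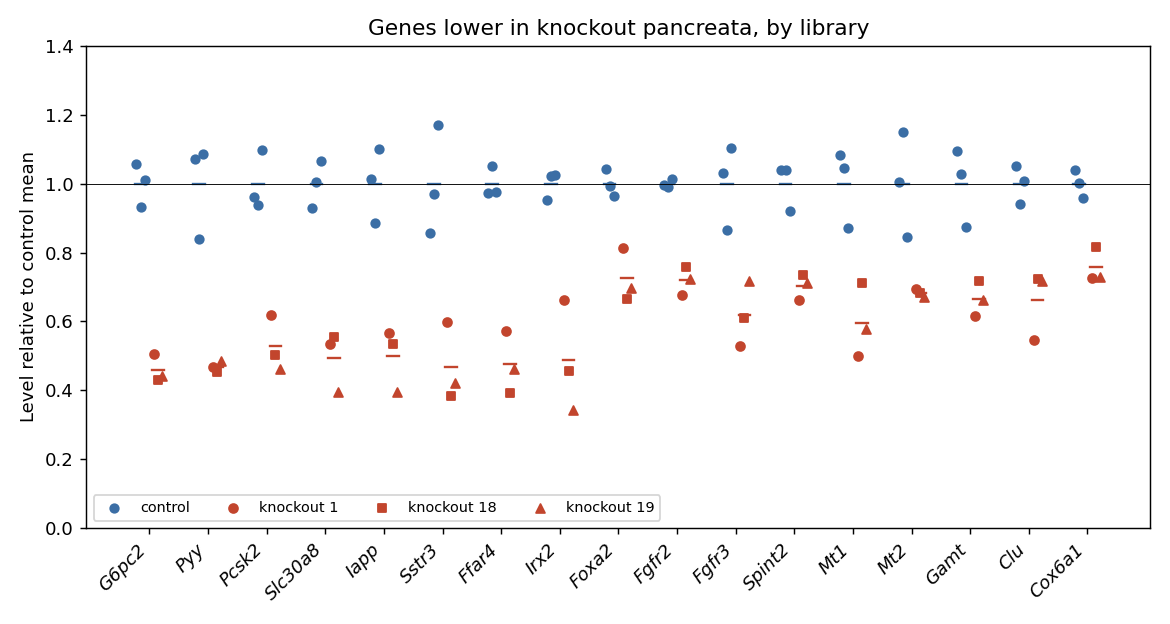
Levels of 17 fallen genes in each library, divided by the mean of the 3 controls (line at 1), with blue circles for controls, red symbols for knockouts 1, 18 and 19 and short bars for group means. Knockout means of the endocrine genes on the left lie near 0.5 and those of the epithelial and metabolic genes on the right between about 0.6 and 0.8, with the 3 knockouts close together in most.

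The metallothionein genes, whose small proteins bind zinc and copper, fell in parallel. Mt1 stood at 596, 575 and 480.4 CPM in controls and 275, 392 and 318 CPM in knockouts, a change of -0.75 on the log2 scale (SE 0.138, edgeR adjusted p = 0.0283), and Mt2 stood at 316, 362 and 266 CPM in controls and 218, 215 and 211 CPM in knockouts, a change of -0.55 on the log2 scale (SE 0.106, edgeR adjusted p = 0.0298). With the zinc transporter gene Slc30a8 they were the 3 fallers among 23 tested metal-handling genes, of which none rose and whose median was -0.04. Over all genes tested, 2.68% fell. Mt1 was lowest in knockout 1, while Mt2 was nearly equal in the 3 knockouts. Their promoters are shown because they moved together and carry several copies of the metal response element core, searched as TGCACNC and TGCGCNC on both strands and in capitals. The windows are those of RefSeq in the same build, at chr8:94178839-94179138 and chr8:94172368-94172667, both plus strand.
Mt1: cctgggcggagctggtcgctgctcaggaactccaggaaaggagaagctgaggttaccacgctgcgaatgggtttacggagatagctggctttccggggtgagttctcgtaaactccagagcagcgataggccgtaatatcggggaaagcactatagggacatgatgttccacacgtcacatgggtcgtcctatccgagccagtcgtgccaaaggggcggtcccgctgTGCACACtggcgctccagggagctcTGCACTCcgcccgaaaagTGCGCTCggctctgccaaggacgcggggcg
Mt2: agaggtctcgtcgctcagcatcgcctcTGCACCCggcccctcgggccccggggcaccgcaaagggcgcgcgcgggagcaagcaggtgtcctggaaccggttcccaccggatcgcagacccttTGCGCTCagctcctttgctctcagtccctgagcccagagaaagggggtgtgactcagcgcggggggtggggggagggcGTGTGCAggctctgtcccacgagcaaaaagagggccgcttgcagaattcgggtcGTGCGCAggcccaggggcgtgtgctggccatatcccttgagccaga
The Mt1 window holds 3 matches and the Mt2 window 4, and these genes too were chosen after matches were seen. At least 1 match occurs in 25.7% of all windows. By gene, a match in any window of the gene was found in 40.0% of genes tested. The share by gene was 44.99% of risen genes and 41.2% of fallen genes, so fallen genes were near the background of genes tested.

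Cbs, which makes cystathionine from homocysteine, stood at 342, 353 and 304 CPM in controls and 219, 247 and 267 CPM in knockouts, a change of -0.45 on the log2 scale (SE 0.0917, edgeR adjusted p = 0.0351). Gamt, which makes creatine, stood at 234, 219.9 and 187 CPM in controls and 132, 153 and 142 CPM in knockouts, and Gcat, of glycine and threonine breakdown, at 301, 304 and 273 CPM in controls and 195, 238 and 228 CPM in knockouts. Slc7a5 and Slc3a2, the 2 chains of the large neutral amino acid transporter, were the 2 fallers among 32 tested ATF4 targets and aminoacyl-tRNA synthetases, and at -0.36 and -0.35 both changed sign under epithelial scaling. The list's median was -0.18 and turned to 0.21 under that scaling, where the median of all genes was 0.39. For comparison, 2.68% of all genes tested fell. Clu, a secreted chaperone and the most abundant faller, stood at 1392, 1242 and 1333 CPM in controls and 721, 957 and 950.3 CPM in knockouts, a change of -0.59 on the log2 scale (SE 0.120, edgeR adjusted p = 0.0331).

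Other fallers had mixed roles. Nupr1, a stress-induced chromatin protein of the pancreas, stood at 335, 334 and 301 CPM in controls and 198, 254 and 221 CPM in knockouts, and Peg10, an imprinted gene derived from a retrotransposon, at 739, 817 and 779.8 CPM in controls and 621, 599 and 496 CPM in knockouts. Gstm1, a glutathione transferase, had a log2 fold change of -0.41. Cyp2j5, a cytochrome P450, had the largest fall after Tff2 among called genes of at least 1 CPM, from 2.03 ± 0.384 CPM in controls to 0.540 ± 0.0666 CPM in knockouts (mean ± SD, n = 3), a change of -1.90 on the log2 scale (SE 0.272, edgeR adjusted p = 0.0186). Its levels were low in every library.

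Nuclear genes of the respiratory chain lay slightly under the controls. Of 52 tested, 16 fell, none rose and all 52 had a log2 fold change below 0, where 2.68% of all genes tested fell. The median was -0.25 and turned to 0.15 under epithelial scaling, where that of all genes was 0.39. Cox6a1, a subunit of cytochrome oxidase, stood at 175, 169 and 162 CPM in controls and 123, 138 and 123 CPM in knockouts, a change of -0.40 on the log2 scale (SE 0.0668, edgeR adjusted p = 0.0236). Ndufa8 of complex I stood at 76.5, 76.8 and 71.6 CPM in controls and 61.4, 61.4 and 60.3 CPM in knockouts, and Atp5o of ATP synthase at 159, 161 and 151 CPM in controls and 129, 128 and 123 CPM in knockouts. Within each group these values were tight. Ndufs8 and the ribosomal protein gene Rps15 had log2 fold changes of -0.33 and -0.33, and Ndufa8, Ndufs8, Atp5o and Rps15 changed sign under epithelial scaling. Once the length trend was removed 0 of 52 fell and the median was -0.09. The number that fell was 7 without knockout 1, 20 without knockout 18, 1 without knockout 19, 1 with the liver covariate, 18 with the sex covariate and 2 with library totals. The median stayed between -0.28 and -0.17 in those 6 settings. Of 51 tested mitochondrial ribosome genes, 4 fell and none rose, with a median of -0.15. That median turned to 0.25 under epithelial scaling, below the 0.39 of all genes.

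Some endothelial genes fell. Flt1, a VEGF receptor, stood at 71.9, 63.6 and 69.4 CPM in controls and 43.9, 54.1 and 44.6 CPM in knockouts, a change of -0.53 on the log2 scale (SE 0.0930, edgeR adjusted p = 0.0265). Eng, a TGF-beta co-receptor, stood at 152, 119.9 and 139 CPM in controls and 82.9, 104 and 88.3 CPM in knockouts, Robo4 at 43.0, 30.1 and 35.9 CPM in controls and 18.3, 27.1 and 21.5 CPM in knockouts and Pcdh12, an endothelial protocadherin, at 37.6, 27.9 and 33.2 CPM in controls and 20.3, 23.1 and 23.8 CPM in knockouts. Knockout 1 was lowest in each, and no knockout reached a control. The 5 endothelial markers summed to 629 to 798 CPM in controls and 495 to 647 CPM in knockouts. Of these 5, 1 fell, where 2.68% of all genes tested fell.

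Several programmes had no edgeR call and others had 1 or 2, where 3.75% of all genes tested rose and 2.68% fell. Of 42 tested genes of DNA replication and mitosis edgeR called 0, with a median of 0.00 and 2 at an unadjusted p under 0.05, and DESeq2 and limma-voom called 0. Under epithelial scaling 41 of the 42 rose, along with 9911 of all genes tested. Of 28 ribosome biogenesis genes edgeR called 0, with 6 at an unadjusted p under 0.05, DESeq2 calling 1 and limma-voom 0. Of 30 spliceosome core genes edgeR called 0, with 7 at an unadjusted p under 0.05, DESeq2 calling 0 and limma-voom 1. Of 32 lysosomal genes edgeR called 0, with 5 at an unadjusted p under 0.05, and DESeq2 and limma-voom called 1 each. Among 33 translation factors 2 fell (Eif3i and Eif3k), among 18 cell cycle inhibitors and p53 targets Cdkn1a fell, among 19 glycolytic genes Aldoc fell and among 20 hypoxia-responsive genes Ddit4 fell. Of 29 interferon-stimulated genes, 2 fell (Isg20 and Bst2). Over all 14914 genes, 3791 had an unadjusted p under 0.05.

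**Figure D5:**
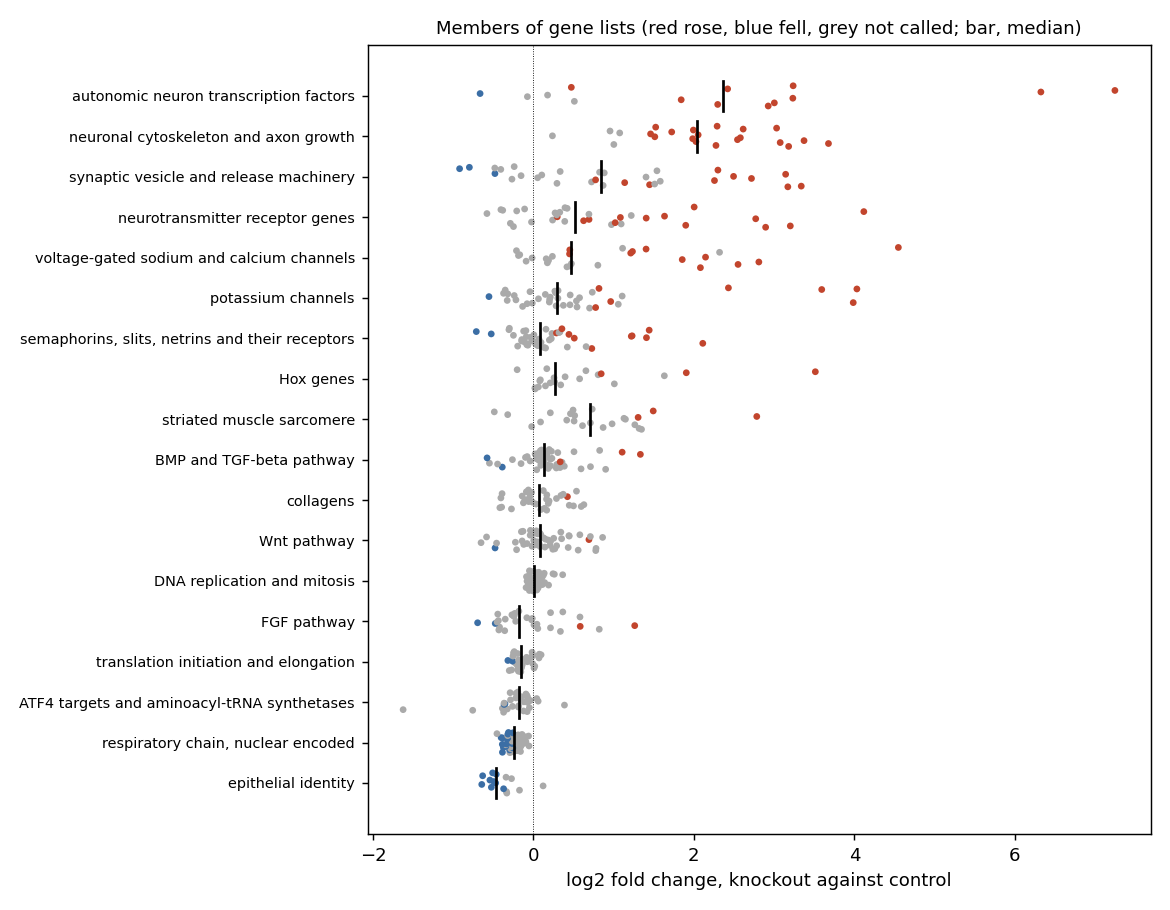
Each point is a tested member of a gene list, at its log2 fold change, knockout against control, coloured red if it rose, blue if it fell and grey if it was not called, with a black bar at the list's median. Medians run from 2.36 for autonomic neuron factors to -0.46 for epithelial identity genes, and replication and mitosis genes gather at 0.

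Called genes were spread over the genome. The share called ran from 4.24% on chromosome 13 to 8.63% on chromosome 3, against 6.43% of all genes tested, leaving out the Y chromosome with 1 gene tested. Near the targeted gene, 19 genes were tested within 1 Mb of Tff2, of which none rose and 2 fell, Slc37a1 and Cbs. Within 5 Mb, 223 were tested, none rose and 11 fell, a share of 4.93% against 2.68% of all genes tested. Its neighbour Tff3 had a log2 fold change of -0.87 and an edgeR adjusted p of 0.160, at a mean of 0.855 CPM.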

How the data were processed

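Polyadenylated RNA of 6 whole E16.5 pancreata, 3 controls and 3 knockouts, was sequenced after Kapa mRNA HyperPrep library preparation, per the labels' protocols. The authors deposited raw read counts per gene, with a gene length in kb. Per the submitters' processing notes the build was mm10, and the tools included STAR 2.6.0, HTSeq 0.11.1, Trimmomatic and edgeR. The labels give no strand setting. Groups came from the titles. Counts were tested in R 4.3.3 by quasi-likelihood with edgeR 4.0.16 (TMM scaling, filterByExpr defaults, Benjamini-Hochberg adjustment over 14914 genes, threshold 0.05), 3 against 3 and unpaired. Log2 fold changes are knockout against control, with SE from the F statistic. The fit was tested on simulated counts. Alternatives used DESeq2 1.42.0, limma 3.58.1, other scalings, filters and covariates, and each library left out.

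Members and the 44 gene lists were chosen with earlier results of these data known. The naming rule took Tff2, then in each direction, among called genes of at least 1 CPM, the 20 with the largest fold change, the 15 with the lowest p and the 15 with the highest mean CPM, with up to 4 called members per list and direction. Outside it, chosen after their values were seen, were Gata3, Phox2a, Hand1, Nefl, Cnn1, Myocd, Ikzf1, Coro1a, Ccr2, Lyz2, Foxa2, Ehf, Elf3, Spdef, Gamt, Gcat, Flt1, Pcdh12, Srrm3, Ptf1a, Slc37a1 and Tff3. Without strand, reads could not be divided between Phox2a and Inppl1, Ina and Nt5c2, Plxna4 and Plxna4os1, B3gat1 and Glb1l2, Srrm4 and Srrm4os, Pcsk2 and its antisense RNAs, Iapp and Slco1a5, Cldn3 and Wbscr25, Macf1 or Cyp2j5 and Eno1b, or Eng and Fpgs. A few called genes that the rule named are not reported here. Some microRNA entries of the table span wide regions. The division of reads is also uncertain for Ins1, Mt1, Mt2, Gstm1, Myh8, Rps15, Cox6a1, Atp5o and the other genes with near-identical copies.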

Additional observations from a re-analysis of the deposited data

How the results depend on the processing

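The 560 risen and 399 fallen genes kept their direction under the alternatives run, apart from 173 of them under epithelial scaling and 1 with the length trend removed, an alternative chosen after seeing the data. With at least 1 CPM in 3 libraries, 936 of the 959 were tested. The risen and fallen counts were 9911 and 51 under epithelial scaling, 918 and 632 with DESeq2, 224 and 124 with the liver covariate, 1 and 3 with the red cell covariate (1314 genes at an unadjusted p under 0.05), 0 and 0 in edgeR's test against a minimum fold of 1.5 (617 at an unadjusted p under 0.05) and 333 and 196 with the length trend removed, and 179 genes fell with library totals. With each library left out in turn, 0 to 694 genes rose and 0 to 395 fell. The lowest values came without control 2 or 13, without control 8 the counts were 3 and 1, and 192 genes fell without knockout 19. The cause was not tested. Under epithelial scaling the log2 fold changes turned to 0.0077 for Bmp7, 0.0094 for Aldoc, 0.032 for Slc7a5, 0.043 for Slc3a2, 0.063 for Ndufs8, 0.065 for Rps15, 0.079 for Eif3k, 0.085 for Atp5o, 0.088 for Cdkn1a, 0.099 for Ndufa8, 0.13 for Ptf1a, 0.13 for Eif3i and 0.17 for Ddit4. With that scaling the median of all genes tested was 0.39. No paired analysis was possible because controls and knockouts share no animal numbers. At this depth, genes of a few reads per library, such as Kcnc4 or Htr3b in controls, have fold changes that rest on few reads.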
